A study of Mus musculus with 2 samples.

Results

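The 35 genes described here encode aminoacyl-tRNA synthetases, the enzymes that attach each amino acid to its transfer RNA. They were taken by name from the authors' deposited gene expression table, and each of the 35 symbols listed for the family was found in 1 row of the 34376 rows. By their symbols 20 encode cytosolic enzymes and 15, whose symbols end in 2, encode the enzymes of the mitochondrial matrix. Symbols are in capitals here, as in the deposited table, and in mouse style in the plots (SARS as Sars).

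RNA was sequenced from mouse E14 embryonic stem (ES) cells, an established line of the 129P2/OlaHsd strain, at passage 29. The undifferentiated library came from cells kept in 15% serum with leukaemia inhibitory factor on mitomycin C-treated mouse embryonic fibroblasts, which were then removed to an estimated remainder below 0.25%. The differentiated library came from cells of the same line and passage kept for 4.5 days without feeders in 10% serum with 0.1 µM all-trans retinoic acid, and is a mixed population. Trypan blue counts put dead cells at about 2% and 8%. The libraries thus differ at once in retinoic acid, feeders and serum, and what each contributes cannot be told apart. Each condition is 1 library, read on 2 lanes. Values were read as RPKM, that is reads scaled by the length of a model and by the size of the library. The gene value is the sum over the transcript models of a gene, so reads on short models can raise it. Levels of different genes therefore depend on the models counted. Paired values are lane 1 and lane 2 of a library, undifferentiated lanes first. Lanes are repeat runs of the same cDNA, so their gap shows the precision of sequencing and of assigning reads and says nothing of how cultures vary. Because each condition has 1 library, the conditions cannot be tested against each other and the differences have no replicate check.

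Each synthetase recognises its own amino acid and tRNA, and its product is the substrate of the ribosome. The cytosol and the mitochondrion hold separate sets of enzymes, all encoded in the nucleus, with a few genes that serve both places. In the cytosol a group of synthetases is held together by scaffold proteins in the multi-synthetase complex. The transcription factor ATF4, made when amino acids are short or the endoplasmic reticulum is stressed, is known to raise many of the cytosolic genes.

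The libraries carried the marks of their labels. All 7 ES cell markers examined were lower in the differentiated library by 2-fold or more, among them POU5F1 (686 and 699 RPKM against 29.7 and 29.3). All 8 markers of the retinoic acid response and extraembryonic endoderm were higher by that much, among them CYP26A1 (0.784 and 0.615 against 264 and 241). Whole-read steps in the values implied 32000000 to 37800000 reads a lane, or 32 to 37.8 reads for each RPKM and kilobase. Steps were searched only within a fixed range, so depths outside it were not tested. The 8 fibroblast markers summed to 31.1 RPKM before and 227.7 after differentiation, and 4 of the 7 at the floor of 1 RPKM were higher by 2-fold or more (COL1A1, COL1A2, COL3A1 and DCN). PDGFRB had a ratio of 0.50, THY1 of -0.50 and POSTN of -0.49, and LUM was below the floor (0.0921 and 0.0530). The part of fibroblast-like cells in the values below was not tested.

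Most synthetase genes were modestly lower in the differentiated library, and the medians of both the cytosolic and the mitochondrial set were negative. The log2 ratio of (differentiated RPKM + 1) over (undifferentiated RPKM + 1) had a median of -0.32 over the 20 cytosolic genes and of -0.35 over the 15 mitochondrial genes, against 0.12 over the 17899 genes that reached 1 RPKM in 1 of the libraries or both. All 35 members reached that floor, and 31 of them lay below the median of all genes (19 cytosolic and 12 mitochondrial). The interquartile range of the cytosolic ratios was -0.48 to -0.23 and that of the mitochondrial ratios -0.62 to 0.03, against -0.46 to 0.78 over all genes. The difference between the medians of both sets, cytosolic minus mitochondrial, was 0.03, but 0.21 in lane 1 and -0.12 in lane 2 alone. In bulk RNA, a lower level per cell and fewer cells of a kind cannot be told apart.

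Few members reached 2-fold. Among cytosolic genes SARS was lower and none was higher, and among mitochondrial genes WARS2 was higher and none was lower. Over all genes 8.48% were at least 2-fold lower and 19.1% at least 2-fold higher, so members past 2-fold were no more frequent than among genes in general. At 1.5-fold, 9 members were lower (4 cytosolic and 5 mitochondrial) against 20.4% of all genes, and 2 were higher (WARS and WARS2) against 31.6%. The count of lower members depended on the scale: it was 1 of 35 with equal RPKM sums, against 13.1% of all genes, and 13 of 35 with trimmed-mean scaling, against 26.0%. The count of higher members was 2 in both. In 26 members both differentiated lanes lay below both undifferentiated lanes, against 37.1% of all genes. In 3 members (WARS, WARS2 and QARS) both lay above, against 47.4%, and in 6 the lanes overlapped.

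**Figure D1:**
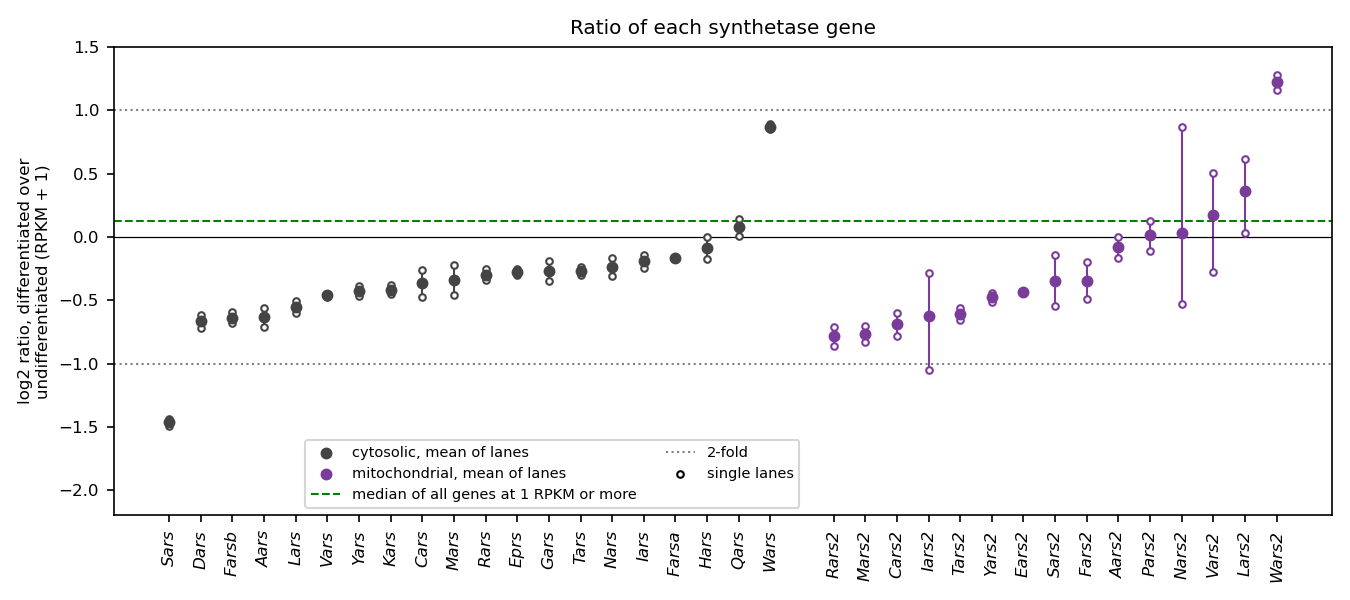
Log2 ratio of differentiated over undifferentiated RPKM + 1 (vertical axis) for each of the 20 cytosolic and 15 mitochondrial synthetase genes, ordered by ratio within each set, with filled points for the mean of the lanes and open points for the single lanes. Most points lie between -1 and 0 and below the median of all genes at 0.12, SARS at -1.47 and WARS2 at 1.22 lie beyond 2-fold, and NARS2, IARS2, VARS2 and LARS2 have lanes far apart.

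The direction of small ratios depends on the scale of the libraries. With both libraries scaled to equal RPKM sums the median of all genes became 0.34, the cytosolic and mitochondrial medians became -0.0772 and -0.13, and FARSA, IARS, NARS, HARS and AARS2 turned positive. Relative to the median of all genes in the same setting, the cytosolic median stood at -0.42 and the mitochondrial at -0.48 there, close to the -0.44 and -0.47 of the values as deposited. Of the all-gene calls past 2-fold, 69.3% were higher as deposited, 59.4% with the median of all genes set to 0, 58.1% after trimmed-mean scaling and 80.6% with equal sums.

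The cytosolic enzymes were the more abundant set, at 36.1 to 287 RPKM over both libraries, with a median of 75.2 before and 67.3 after differentiation. The mitochondrial enzymes lay at 1.56 to 43.2 RPKM, with medians of 10.1 and 9.25. Only IARS2 among them reached the range of the cytosolic genes, and only in the undifferentiated library. Summed over the cytosolic genes the level was 2035 and 2057 RPKM against 1559 and 1520. The mitochondrial sum was 194 and 177 against 137 and 141. The cytosolic sum was thus 11.0 times the mitochondrial before and 11.1 times after differentiation, a difference smaller than that between lanes (10.5 and 11.6, then 11.4 and 10.8). SARS alone made up 32.2% of the difference in the cytosolic sum, which was 0.752 of its undifferentiated level with SARS and 0.808 without it.

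**Figure D2:**
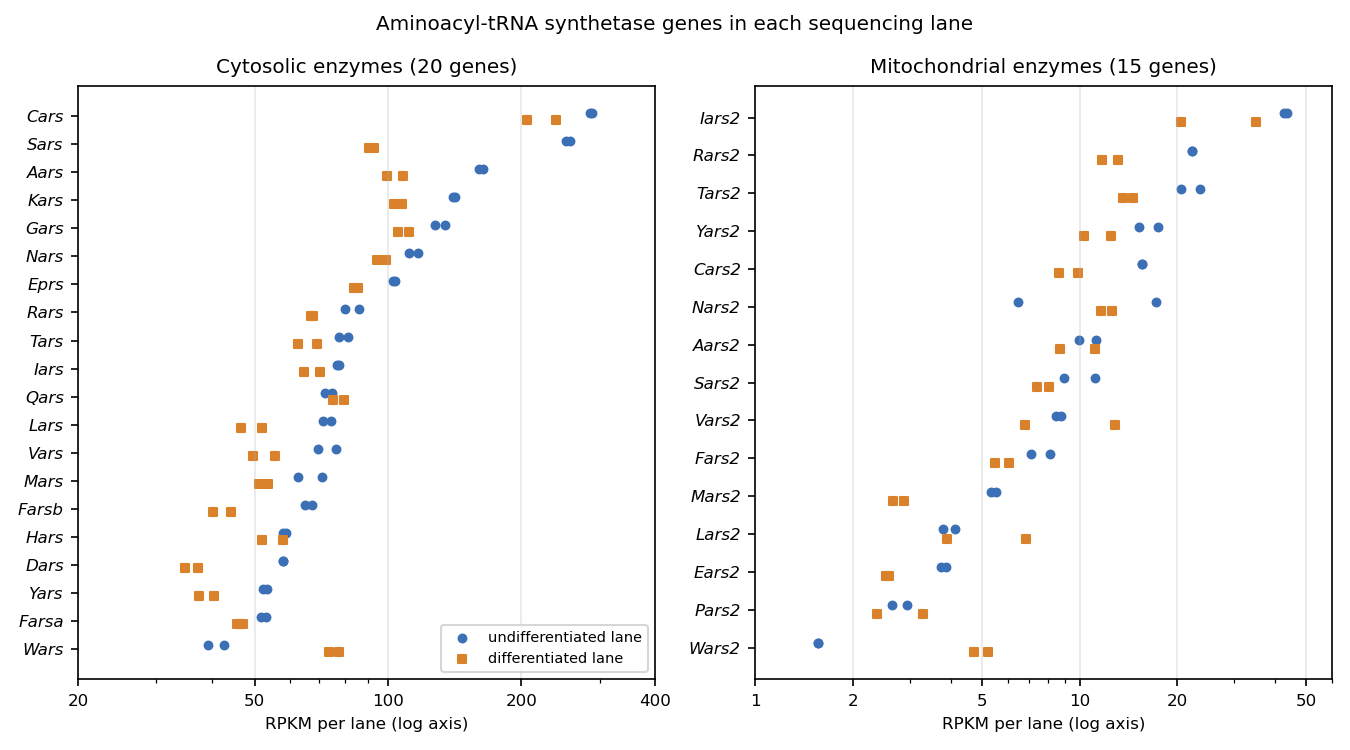
RPKM on a log axis in each lane for the 20 cytosolic genes (left) and the 15 mitochondrial genes (right), ordered by their undifferentiated level, with circles for undifferentiated and squares for differentiated lanes. In most rows the squares lie to the left of the circles, in the rows of WARS and WARS2 they lie to the right, and the cytosolic axis starts at a level that few mitochondrial genes reach.

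SARS, which charges serine tRNA (mm9 chromosome 3, 108227782 to 108248177), had the lowest ratio of the family. It stood at 253 and 257 RPKM against 92.7 and 90.5, without overlap. The log2 ratio was -1.47, and -1.44 and -1.49 in the separate lanes. The difference lay in particular transcript models. The authors' gene value is the sum over the transcript models of a gene, and the 2 models of SARS that carry a RefSeq accession summed to 99.2 and 95.8 RPKM against 92.6 and 90.5 (log2 ratio -0.09). A pair of shorter models (108231149 to 108248061 and 108232268 to 108248127), which the mouse GENCODE M21 annotation lists as protein-coding with 1067 and 637 bases against 3570 for the longest SARS model, held 148 and 155 RPKM in the undifferentiated lanes. Both were listed at 0 in both differentiated lanes. A listed 0 can be a failed estimate, and whether it is one here was not tested. Such zeros were uncommon in the table: of 5421 models at 20 RPKM or more in the undifferentiated library, 21 were listed at 0 in both differentiated lanes. The 2 SARS models are among these 21, of which 15 belong to genes with another model at 20 RPKM or more after differentiation. In the other direction, 42 of 5675 models at 20 RPKM or more in the differentiated library were listed at 0 in both undifferentiated lanes. The RefSeq models held 38.2% of the SARS value before and 99.9% after differentiation. Share differences were counted in the 25 members with several models and at least 5 RPKM in both libraries. SARS was the one gene among them whose share differed by 20 percentage points in the same direction in both lanes. How often this occurs over all genes was not counted, so it cannot be called particular to SARS.

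WARS2, the mitochondrial enzyme for tryptophan (chromosome 3, 98944991 to 99043109), had the highest ratio and the lowest undifferentiated level. It stood at 1.56 and 1.56 RPKM against 4.72 and 5.22 (log2 ratio 1.22). Its lanes did not overlap either. The RefSeq model accounted for 1.06 and 1.23 against 2.29 and 2.20 RPKM (0.59). Models that GENCODE M21 marks as targets of nonsense-mediated decay, the pathway that degrades RNAs with early stop codons, accounted for 0.493 and 0.305 against 2.28 and 2.83 RPKM. Such models made up 25.6% of the WARS2 value before and 51.4% after differentiation. Counting RefSeq models alone, an alternative chosen after the values were seen, neither SARS nor WARS2 reached 2-fold.

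**Figure D3:**
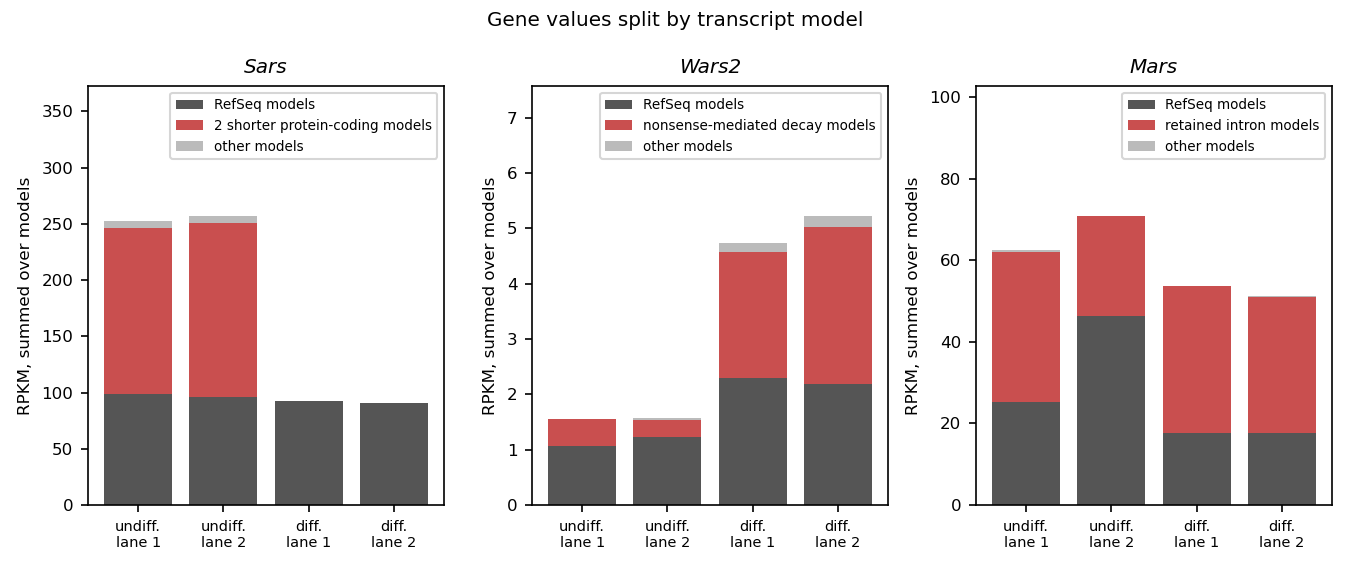
RPKM in each lane (bars), split by kind of transcript model, for SARS, WARS2 and MARS. The RefSeq part of SARS is about as tall in all 4 bars while the shorter models appear in the undifferentiated bars alone, both parts of WARS2 are taller in the differentiated bars, and the RefSeq part of MARS differs between the undifferentiated lanes.

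WARS, the cytosolic enzyme for tryptophan and a gene known to be induced by interferon (chromosome 12, 110098240 to 110132384), was the one cytosolic gene above the median of all genes. It stood at 42.6 and 39.3 RPKM against 77.6 and 73.7 (log2 ratio 0.87). The lanes did not overlap, and WARS had the lowest of the cytosolic levels before differentiation and rank 9 of the 35 members after it. Its RefSeq models gave a like ratio (0.84). The table divides WARS between 2 main first exons, and the shares of both were nearly equal in the libraries: that at 110131370 to 110131420 held 53.5% and 53.3% of the value and that at 110132279 to 110132383 held 43.7% and 42.1%. Both tryptophan genes were thus higher. The ratio of WARS to WARS2 was 27.4 and 25.1 against 16.4 and 14.1 over all models, but over RefSeq models it was 39.0 and 30.8 against 32.2 and 31.8, with overlapping lanes.

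After SARS, the lowest cytosolic ratios were those of DARS, FARSB, AARS and LARS. DARS, for aspartate, stood at 57.9 and 57.8 RPKM against 34.8 and 37.3 (log2 ratio -0.67). AARS, for alanine, stood at 160.4 and 164 against 108 and 99.7 (-0.64). LARS, for leucine, stood at 74.3 and 71.3 against 52.0 and 46.6 (-0.55). None of the 3 had overlapping lanes. The LARS model contains the row of GM6636 on the other strand (mean levels of 579 and 467 RPKM over 496 bases). At its 3' end it also contains that of AK204365 on the other strand (31.8 and 14.4 RPKM over 252 bases, log2 ratio -1.09). The kit does not record strand, so reads cannot be told apart where exons of such rows overlap. Counted by whole gene spans, introns included, 9 members (7 cytosolic and 2 mitochondrial) overlapped another row that reached the floor. That count does not show how many share exon bases. DARS and FARSB are in it only through the row of GM6497, which spans 61717317 to 149440790 on chromosome 1.

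The enzyme for phenylalanine is built from an alpha subunit encoded by FARSA and a beta subunit encoded by FARSB, in equal numbers. FARSA (chromosome 8, 87380885 to 87393156) stood at 51.6 and 53.0 RPKM against 45.7 and 47.2 (log2 ratio -0.17). FARSB (chromosome 1, 78414533 to 78485434) stood at 67.3 and 65.0 against 44.2 and 40.2 (-0.64). FARSA was at 0.766 and 0.816 of the FARSB level before and at 1.03 and 1.17 of it after differentiation, so the order of the subunits differed between the libraries.

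A pair of the cytosolic genes also make the mitochondrial enzyme. GARS, for glycine (chromosome 6, 54987995 to 55029498), stood at 128 and 134 RPKM against 112 and 105 (log2 ratio -0.27), in 1 transcript model. KARS, for lysine (chromosome 8, 114517340 to 114535223), stood at 139.9 and 142 against 107 and 103 (-0.42). Neither had overlapping lanes. Splicing is known to give KARS a mitochondrial form with an added leader and a shorter cytosolic form. The 2 KARS models with the longer coding region in GENCODE M21 (1872 bases) held 59.6% of the value before and 58.9% after differentiation, and the model with the shorter one (1785 bases) 40.4% and 41.1%. The shares of the KARS forms thus differed by under 1 percentage point.

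The genes of the multi-synthetase complex and of the free enzymes had like ratios. The 8 complex members among the genes here (DARS, EPRS, IARS, KARS, LARS, MARS, QARS and RARS) had a median log2 ratio of -0.32, and the 12 other cytosolic genes one of -0.32. EPRS, a single protein that charges both glutamate and proline tRNA (chromosome 1, 187186974 to 187252234), stood at 102 and 103 RPKM against 85.5 and 83.8 (-0.28). QARS, for glutamine, was the one complex member that was higher, at 74.7 and 72.1 against 75.2 and 79.6 (0.08), a ratio below the median of all genes. The 3 scaffold genes were lower: EEF1E1, also called AIMP3, was at 82.2 and 90.8 against 44.5 and 38.1 (-1.05), and AIMP1 at 90.3 and 85.6 against 62.5 and 63.2 (-0.48). AIMP2 had a ratio of -0.44. By enzyme class, which reflects the fold of the catalytic domain, the cytosolic medians were -0.34 for the 9 class I and -0.34 for the 10 class II genes, with EPRS, which holds a domain of each, in neither.

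The remaining cytosolic genes had ratios between -0.46 and -0.09. They were VARS (-0.46), YARS (-0.43), CARS (-0.36), MARS (-0.34), RARS (-0.30), TARS (-0.27), NARS (-0.24), IARS (-0.19) and HARS (-0.09), for valine, tyrosine, cysteine, methionine, arginine, threonine, asparagine, isoleucine and histidine. Summed over all models CARS had the highest level of the family, at 288 and 285 RPKM against 239.6 and 205. Its RefSeq model held 2.82% and 2.58% of that. Over models marked protein-coding in GENCODE M21, CARS was at 156 RPKM and SARS at 249 in the undifferentiated library. The 2 shorter SARS models held 151 of that 249, and a CARS model of 539 bases held 63.4 of the 156. The order by level thus depends on the models counted. Over RefSeq models CARS was at 8.10, SARS at 97.5 and AARS at 153 in that library. The models of MARS differed between lanes of the same library. Its RefSeq models held 25.3 and 46.3 RPKM against 17.5 and 17.7 (-0.98), the rest lying mostly in a short retained-intron model at the 3' end of the gene. The annotated end of MARS overlaps by 68 bases that of DDIT3 on the other strand. DDIT3 stood at 6.65 and 9.50 against 33.1 and 27.4 RPKM. The shared bases lie in the RefSeq models of MARS. The short retained-intron model (126733405 to 126734731) does not reach DDIT3, which ends at 126733344.

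Among mitochondrial genes, those for arginine, methionine, cysteine, isoleucine and threonine were lower by at least 1.5-fold. None of the 5 passed 1.5-fold with equal RPKM sums, and 2 mitochondrial genes did on RefSeq models alone. RARS2 stood at 22.2 and 22.2 RPKM against 11.8 and 13.2 (log2 ratio -0.78). MARS2 stood at 5.53 and 5.34 against 2.67 and 2.88 (-0.77). CARS2 stood at 15.5 and 15.5 against 9.88 and 8.62 (-0.69). In each the lanes of a library lay close together and apart from the other library. TARS2 stood at 20.5 and 23.6 against 13.6 and 14.6 (-0.61). IARS2, the most abundant mitochondrial member, stood at 43.6 and 42.7 against 20.5 and 34.9 (-0.62). Its differentiated lanes were 1.70-fold apart, and the separate ratios were -1.05 and -0.29.

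In the lane in which IARS2 was lower, the overlapping gene RAB3GAP2 was higher. The models overlap by 2021 bases at their ends on opposite strands, RAB3GAP2 stood at 29.1 and 12.2 RPKM in the differentiated lanes, and a short IARS2 model at that end (187109448 to 187112161) was listed at 0 and at 8.03. The RefSeq model of IARS2 alone was at 20.5 and 26.8 in those lanes. What share of the IARS2 difference this overlap holds was not tested.

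The other mitochondrial genes lay nearer to 0. YARS2 (-0.48), EARS2 for glutamate (-0.43), SARS2 (-0.35) and FARS2 for phenylalanine (-0.35) had no overlap between lanes of the libraries. AARS2 (-0.08), PARS2 for proline (0.02), NARS2 (0.03), VARS2 (0.17) and LARS2 (0.36) had overlapping lanes. Their differences were thus within the spread between lanes, which holds both sequencing and the assigning of reads to models. Among mitochondrial members, 4 had lanes of a library at least 1.5-fold apart, and no cytosolic member did. The share of all genes with such gaps was not counted. The sets also differ in level, with medians over both libraries of 9.19 RPKM for mitochondrial and 72.4 for cytosolic members. NARS2 was the extreme, at 17.2 and 6.44 RPKM against 11.6 and 12.6, with separate ratios of -0.53 and 0.87. Its models marked for nonsense-mediated decay held 12.3 and 0.499 RPKM in the undifferentiated lanes. For VARS2 the differentiated lanes stood at 12.8 and 6.77, of which a retained-intron model held 7.62 in lane 1 and was listed at 0 in lane 2. LARS2 stood at 6.85 and 3.89 in those lanes.

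For 14 amino acids the list holds both a cytosolic and a mitochondrial gene, with EPRS counted for glutamate and for proline. The cytosolic level exceeded the mitochondrial in all 14, from 1.78-fold for isoleucine to 37-fold for proline in the undifferentiated library, and from 2.43-fold (isoleucine) to 33.1-fold (glutamate) in the differentiated one. The median ratio was 13.8 and 9.82. The pairs went both ways. In 6 the ratio was higher in both differentiated lanes than in both undifferentiated lanes. In 4 it was lower, and in 4 the lanes overlapped. Of all genes, taken singly, 47.4% had both differentiated lanes higher and 37.1% had both lower. The share for ratios of other gene pairs was not counted, so these counts cannot be called particular to the synthetases. The methionine ratio had the largest increase, at 11.3 and 13.3 against 20.1 and 17.7, and the serine ratio the largest decrease, at 22.6 and 28.7 against 12.6 and 11.3. Neither stood on RefSeq models alone: the methionine ratio was then 4.57 and 8.67 against 6.58 and 6.14, with overlapping lanes, and the serine ratio was higher, at 9.16 and 10.9 against 15.8 and 11.7. In that setting IARS was also below IARS2 in the undifferentiated library (ratio 0.880). Of the 13 pairs with a RefSeq value in every lane, 4 ratios were higher, 3 were lower and 6 overlapped. Here too the share for other gene pairs was not counted.

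**Figure D4:**
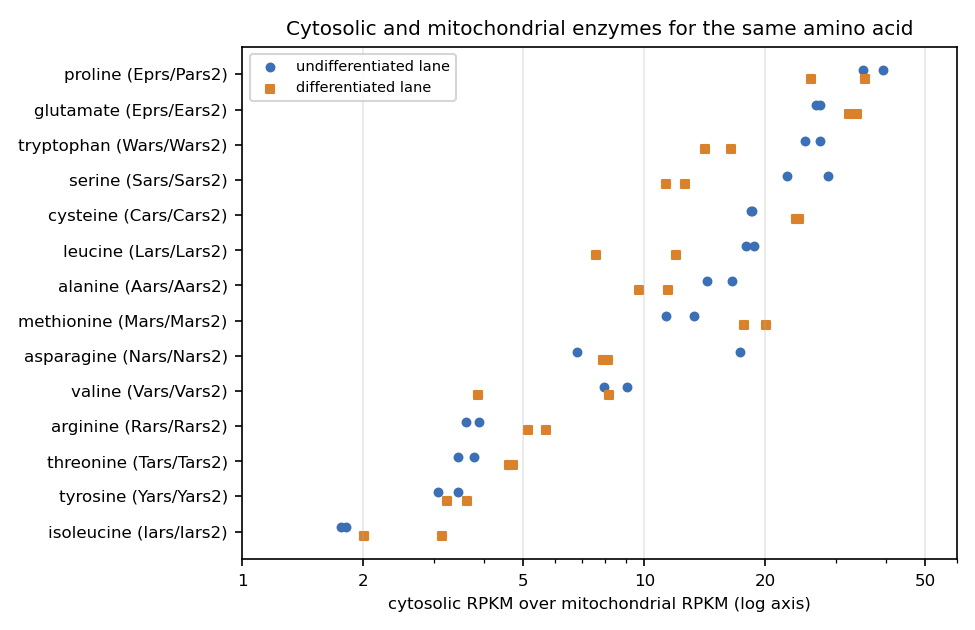
Ratio of cytosolic to mitochondrial RPKM on a log axis for the 14 amino acids with both genes, in each undifferentiated (circles) and differentiated (squares) lane, ordered by the undifferentiated ratio. The squares lie to the right of the circles for 6 amino acids, such as methionine and arginine, to the left for 4 (tryptophan, serine, leucine and alanine), and overlap them for 4.

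Cytosolic genes known as ATF4 targets and the others had similar medians. The 12 targets had a median log2 ratio of -0.31 and the 8 other cytosolic genes one of -0.36. Of 20 other genes of the amino acid response, 3 were at least 2-fold lower, 3 were at least 2-fold higher and 14 lay between, with a median of -0.40. CTH, cystathionine gamma-lyase, was at 26.7 and 28.5 RPKM against 5.61 and 6.23 (-2.05), and DDIT3, the stress factor Chop, had the highest ratio (1.78). ATF4 itself stood at 58.7 and 61.4 against 104 and 108 (0.81), and the target ASNS, asparagine synthetase, at 128 and 125 against 41.7 and 51.5 (-1.42). ATF4 and ASNS were named after their values were seen.

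The promoters of the cytosolic genes were examined for the core of the amino acid response element, which dimers of ATF4 and C/EBP factors bind. Promoter sequences of 300 bases (250 before to 50 after the start) were found in the RefSeq table of build GRCm38.p6 for 27 members, and not for CARS, HARS, LARS, NARS, RARS, VARS, WARS and PARS2. The motif searched was TGATGNAA on both strands (TTNCATCA on the other), with no other motif. It was present in 5 of the 27, against 4.51% of the 27025 genes of the table (3.97% of its 32851 promoters). All 5 were among the 8 ATF4 targets with a sequence, a list drawn from what is known of ATF4 and so not independent of the motif, and it was in 0 of 5 other cytosolic and 0 of 14 mitochondrial genes. The sequences are shown to describe the matches in these 5 genes, and most members with a promoter sequence had none. Each line gives 60 bases in the direction of the gene, 5′ to 3′, with every match in capitals.

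AARS, chr8:111033704-111033763, forward strand: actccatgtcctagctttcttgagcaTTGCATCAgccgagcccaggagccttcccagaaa
AARS, chr8:111033825-111033884, forward strand: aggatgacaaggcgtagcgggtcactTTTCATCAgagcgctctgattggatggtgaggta
GARS, chr6:55037945-55038004, forward strand: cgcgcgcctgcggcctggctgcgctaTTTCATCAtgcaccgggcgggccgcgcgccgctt
IARS, chr13:49682111-49682170, forward strand: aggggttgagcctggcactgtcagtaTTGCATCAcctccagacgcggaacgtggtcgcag
TARS, chr15:11399640-11399699, reverse strand: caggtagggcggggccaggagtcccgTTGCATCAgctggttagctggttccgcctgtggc
YARS, chr4:129189880-129189939, forward strand: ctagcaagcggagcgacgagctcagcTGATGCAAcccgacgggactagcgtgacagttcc

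The matches began between 112 bases before the annotated start (AARS) and 9 bases after it (the second in AARS), and IARS, AARS and TARS share the 8 letters TTGCATCA, of which the match in YARS is the reverse complement. The 5 genes with the motif had log2 ratios from -0.64 to -0.19, with a median of -0.27, and the 8 cytosolic genes with a sequence and no match -1.47 to 0.08, with a median of -0.38. The ranges overlapped, and a match is a description of the letters and not of binding.

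Other genes of tRNA charging and translation also had negative medians. Of 7 synthetase and tRNA-editing genes that are not in the family list, none was past 2-fold (median -0.35). They include AARSD1, an editing protein that removes wrongly charged alanine tRNA, at 34.4 and 34.7 RPKM against 19.7 and 16.9 (-0.88). HARS2, the mitochondrial enzyme for histidine, named after its values were seen, had a ratio of -0.17. Of 18 genes of tRNA processing and modification, 2 were at least 2-fold lower and none was higher (median -0.39). These were PUS1, a pseudouridine synthase (49.3 and 33.8 against 19.1 and 18.0, -1.12), and TRMT1, a tRNA methyltransferase (96.6 and 74.1 against 39.9 and 37.5, -1.12).

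The translation factors went both ways. The carriers that bring charged tRNAs to the ribosome were higher: cytosolic EEF1A1 was at 5213 and 5219 RPKM against 6822 and 6846 (0.39) and mitochondrial TUFM at 48.0 and 42.6 against 57.4 and 60.5 (0.37), both named after their values were seen. The summed level of the 8 cytosolic elongation genes was 10621 against 10611. EEF1A1 alone held 5216 and 6834 of these sums, while 6 of the 8 genes had negative ratios and 2 had positive ones. Of these 8 genes 1 was past 2-fold, the scaffold gene EEF1E1, and the median was -0.47. EEF1B2, a subunit of the exchange factor that recharges the tRNA carrier, was at 1395 and 1365 RPKM against 836 and 829.7 (-0.73). Of 13 mitochondrial translation factors none was past 2-fold, and the median of -0.17 lay nearer to that of all genes than the mitochondrial synthetase median did. MTRF1L, a release factor, was at 1.67 and 2.66 against 4.22 and 5.21 (0.85). The initiation factor MTIF3 was at 1.09 and 3.85 against 1.20 and 1.32 (-0.62), with separate lane ratios of 0.07 and -1.06.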

How the data were processed

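RNA of 2 libraries was analysed from the 3 tables the authors deposited, for genes, promoters (sets of transcripts sharing a first exon) and transcripts. The tables do not name their unit. The deposited values were read as RPKM, because in single-exon genes 82.4% to 82.7% of low values (above 0, value times length under 1000) fell on whole reads within 5% of a read, and column sums differed between libraries. Coordinates are mm9, per the submitters' processing notes. The aligner, counting program and annotation were not given in the sources used here. Deposited averages equalled lane means, and member values equalled sums over transcript models. With 1 library a condition no test was run, and the gap between lanes shows only the precision of sequencing and of assigning reads. Of rows with the same symbol the one with the highest mean was used. Ratios used a pseudocount of 1 RPKM and a floor of 1 RPKM in either library, with calls at 2-fold and 1.5-fold. The pseudocount understates differences of weakly expressed genes.

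Members and lists were chosen with earlier results of these data known. Lane values were printed for members past 2-fold, the 6 cytosolic and 6 mitochondrial members with the largest absolute ratio, GARS, KARS, FARSA, FARSB and EPRS, and for the 2 genes of each pathway list with the largest absolute ratio. Others with lane values were named after their values were seen. DTD2 was not matched. A further gene named by this rule is not reported here. Transcript kinds came from GENCODE M21 by transcript identifier, and promoters from RefSeq (GRCm38.p6), whose coordinates were not mixed with mm9. Alternatives were a pseudocount of 0.1, floors of 0 and 5 RPKM, 4 scalings, single lanes, summed rows and RefSeq models alone, the last chosen after seeing the data. Protein signatures were not searched here. Python 3.11.15 and pandas 2.3.3 were used. The calls were also run on simulated counts, with planted changes larger than 2-fold in genes well above the floor. That simulation held counting noise alone. It says nothing of variation between cultures, of reads divided among models or of changes in weakly expressed genes.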

Additional observations from a re-analysis of the deposited data

How the results depend on the processing

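No paired analysis was possible because each group holds 1 library. The cytosolic median log2 ratio of -0.32 became -0.44 with the median of all genes set to 0, -0.49 with trimmed-mean scaling and -0.45 with scaling to the upper quartile. With equal RPKM sums the cytosolic median was -0.0772, the mitochondrial -0.13, and 1 cytosolic gene, WARS (1.11), was at least 2-fold higher. With a floor of 5 RPKM, which leaves 12 mitochondrial genes, 0 mitochondrial genes were at least 2-fold higher, since WARS2 stayed just below the floor. In lane 1 alone 1 mitochondrial gene, IARS2, was at least 2-fold lower. With RefSeq models alone 0 cytosolic genes were at least 2-fold lower and 0 mitochondrial genes at least 2-fold higher. In that setting SARS moved to -0.09 and MARS to -0.98, but 3 members (CARS, CARS2 and EARS2) have under 10% of their value in such models. No member past 2-fold changed sign in any of the 11 alternatives. The lowest levels were those of WARS2, PARS2 and EARS2 in the undifferentiated library and of EARS2, MARS2 and PARS2 in the differentiated one. The implied depth was about 32 reads per RPKM and kilobase, and reads per gene were not counted. The lanes of 4 mitochondrial members differed by 1.5-fold or more, and 1 library per condition limits every difference.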
